A study of Homo sapiens with 8 samples.

Results

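The miR-129 arms are the mature products of a pair of human hairpin genes, MIR129-1 and MIR129-2. They are 3 of the 2575 miRNA names in the deposited count files: the 5p arm, miR-129-5p, which both hairpins hold, and the 3p arms miR-129-1-3p and miR-129-2-3p, each made by 1 hairpin. The files name them hsa-miR-129-5p, hsa-miR-129-1-3p and hsa-miR-129-2-3p, and the names were matched exactly. The arms were chosen by their counts in these same ETBF and control libraries, so the difference of these 3 arms between ETBF and control cells is described here without a test.

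The libraries came from HCT116, an established human colorectal cancer cell line, used between passage 16 and passage 19. For 4 libraries the cells were co-cultured with ETBF for 6 hours, with 500 bacteria added per cell. ETBF is enterotoxigenic Bacteroides fragilis, a colonic anaerobe whose secreted toxin is a metalloprotease that leads to cleavage of E-cadherin. The other 4 came from control cells that received bacterial medium and no ETBF and are titled untreated. The study is about the role of these bacteria in gut inflammation and in the growth of colorectal tumours. Separate cultures are not mentioned in the labels for the replicates. All p-values therefore rest on the spread between these libraries only, and that spread may be technical.

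MiRNAs are short RNAs cut from hairpin transcripts by Drosha and Dicer. One arm, or both, is loaded into an Argonaute protein, which it guides to messenger RNAs that pair with its seed, bases 2 to 8. MiR-129 is known as a brain-enriched miRNA with a tumour-suppressive role, and the CpG island of MIR129-2 is often methylated in colorectal and gastric tumours.

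The mature sequences are shown because the 5p arm cannot be assigned to a hairpin while the 3p arms can. They are taken from RefSeq (GRCh38.p14), where all 3 names matched, and the seed is in capitals.
miR-129-5p: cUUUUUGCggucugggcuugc
miR-129-1-3p: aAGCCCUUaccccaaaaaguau
miR-129-2-3p: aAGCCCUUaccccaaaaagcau

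The 3p arms shared 21 of their 22 bases and differed by the substitution U20C, counted from the 5′ end with the miR-129-1-3p base first. Their seeds were the same, so a site that pairs with the seed of one also pairs with that of the other. Among 2370 human mature entries of the RefSeq table no further name had the seed of either 3p arm, and none but miR-129-5p had the 5p seed. The hairpins are shown next, with the mature arms in capitals, since the single base that tells their 3p arms apart lies near the 3′ end of each.
MIR129-1: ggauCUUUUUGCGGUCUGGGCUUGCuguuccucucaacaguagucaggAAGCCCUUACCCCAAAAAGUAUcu
MIR129-2: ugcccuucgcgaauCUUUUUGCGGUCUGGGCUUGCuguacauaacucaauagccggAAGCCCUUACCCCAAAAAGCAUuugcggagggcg

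MIR129-1 lies at chr7:128207872-128207943 and MIR129-2 at chr11:43581394-43581483, both on the plus strand of GRCh38. These positions come from the reference, while the counts were made on GRCh37.p5 per the submitters' processing notes. The 5p sequence occurs once in each hairpin. The stretch between the arms is 23 bases in MIR129-1 and 21 bases in MIR129-2. In GENCODE release 29 MIR129-1 overlaps no other gene, and the nearest is the leptin gene LEP, 33.3 kb downstream. MIR129-2 lies inside the long non-coding RNA genes AC068205.1 and AC068205.2 on the same strand, in an intron of 3 of the 4 annotated transcripts of AC068205.1 and 1 of the 3 of AC068205.2, and in an exon of none.

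Library totals ran from 2591655 to 4706156 counts in the ETBF libraries and from 5243400 to 6522542 counts in the control libraries, so the controls were deeper. Values are given as counts and as CPM, the usual scaling of counts to library size, after TMM, a correction for library composition. A count of 0 allows up to 3 counts, which is 0.637 to 1.16 CPM of the library total in ETBF libraries and 0.46 to 0.572 CPM in control libraries. These limits and all intervals below are for counting error alone, because PCR copies of a molecule cannot be recognised without molecular identifiers. Epithelial miRNAs were abundant, with a summed level over 10 names of 25811 to 28355 CPM in ETBF libraries and 29557 to 31484 CPM in the control libraries, of which 1 of the 9 tested was higher and 5 were lower with ETBF, or 66.7% called where 34.4% of all 480 tested miRNAs were. The 8 blood and endothelial markers summed to 1071 to 1303 CPM in ETBF libraries and 1477 to 1664 CPM in the controls. Most of this was miR-126-3p, at 1130 ± 98.5 CPM with ETBF and 1519 ± 83.8 CPM in the controls (SD, n = 4 each). Of the 5 tested 1 was higher (miR-451a, 29.4 ± 19.8 CPM with ETBF and 7.23 ± 1.97 CPM in the controls) and 1 lower (miR-126-3p), or 40% called. The 3 untested, miR-223-3p, miR-144-3p and miR-150-5p, had at most 9 counts in a group. The 9 stromal and muscle markers summed to 389 to 430.1 CPM in ETBF libraries and 415 to 429 CPM in the controls, with 0 of 4 tested called. Of its muscle miRNAs, miR-206 and miR-133b were at 0 in all 8 libraries, miR-1 had 29 counts with ETBF and 37 in controls, and miR-133a-3p had 4 with ETBF and 8 in controls. The liver miRNA miR-122-5p was at 1.07 to 2.57 CPM in ETBF libraries and 1.64 to 3.38 CPM in the controls. The part of these cell types in the results below was not tested.

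MiR-129-5p was the arm with nearly all of the signal, and it was low in every ETBF library. Its counts were 24, 18, 26 and 6 in ETBF replicates 1 to 4, against 304, 366, 284 and 372 in control replicates 1 to 4. Scaled to CPM, the ETBF libraries had 5.16, 4.23, 6.68 and 2.24, and the control libraries had 60.4, 64.4, 54.0 and 55.5. The highest ETBF library lay far below the lowest control. The groups did not overlap, as was the case for 33.8% of the 480 tested miRNAs. The level averaged 4.58 ± 1.85 CPM with ETBF, and 58.6 ± 4.78 CPM in the control libraries (SD, n = 4 each). The edgeR fit gave a log2 fold change of -3.62 (SE 0.18), a level 12.3-fold lower with ETBF. In bulk RNA, fewer cells with a miRNA and less of it per cell cannot be told apart.

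The depth behind these values differs between the groups. All 8 counts of miR-129-5p were even. Since its sequence occurs in both hairpins, each read was taken as counted once per hairpin, an assumption that the labels do not settle. Under it, 37 reads stand behind the ETBF libraries and 663 behind the controls. From these reads the summed level was 12.2-fold lower with ETBF, with an exact 95% counting interval of 8.78 to 17.5-fold. The counts of the lowest ETBF library, replicate 4, then rest on 3 reads, and its interval runs from 0.239 to 3.38 CPM when reads are counted once. The highest, replicate 3, rests on 13 reads with an interval of 1.78 to 5.73 CPM. The intervals of these libraries overlap, so the order among the ETBF libraries cannot be read at this depth.

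Within a group the libraries spread about as much as counting alone gives. The SD of miR-129-5p was 1.85 CPM among ETBF libraries, where counting of the halved reads gives 1.6 CPM, and 4.78 CPM among controls, where it gives 4.56 CPM. As a share of the mean, the SD was 40.5% with ETBF and 8.17% in controls. Without ETBF replicate 4 the log2 fold change was -3.46 (SE 0.16). With all counts divided by their common divisor it stayed at -3.62, with an SE of 0.19.

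The difference also shows in the order of abundance within a library. By deposited count, not halved, miR-129-5p held rank 342 to 469 among all names in the ETBF libraries, where 882 to 996 names had a count above 0. In the control libraries it held rank 173 to 181, where 1020 to 1072 names did. After each library was thinned to 2591655 counts, the mean count was 11.8 with ETBF and 142 in controls.

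MiR-129-1-3p, the arm that marks the chromosome 7 hairpin, was scarce, and lower in each ETBF library than in each control library. Its counts were 0, 0, 0 and 1 in ETBF replicates 1 to 4, against 4, 12, 6 and 6 in control replicates 1 to 4. Every control library held it and 1 of the 4 ETBF libraries did. The counting interval of that library, replicate 4, runs from 0.00977 to 2.15 CPM of the library total. It overlaps the interval of every control library, so its place below them cannot be read at this depth. The level averaged 0.0935 ± 0.187 CPM with ETBF, and 1.24 ± 0.602 CPM in the control libraries (SD, n = 4 each). The ratio of the summed counts, 1 over 15213932 counts with ETBF and 28 over 23080375 in controls, made it 19.1-fold lower after TMM scaling, with an exact 95% counting interval of 3.16 to 781-fold. Without ETBF replicate 4 the ETBF libraries held 0 counts. With 3 counts set over the group in place of 0, the level was 5.28-fold lower. This value leaves out the counting error of the control reads, so it is not a strict lower bound. After thinning the summed counts were 13.4-fold lower. The arm did not pass the filter on low counts and has no fitted fold change.

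MiR-129-2-3p, the arm that marks the chromosome 11 hairpin, had 0 counts in all 8 libraries. A count of 0 allows up to 0.197 CPM over the ETBF libraries together and 0.13 CPM over the controls together. Of the 28 3p reads in controls, 28 carried the name of the MIR129-1 product and 0 that of the MIR129-2 product, which allows a share of up to 12.3% for MIR129-2 (upper bound of the exact 95% interval). This bound holds only if the processing could count reads under the MIR129-2 name, which the labels do not settle. With ETBF there was 1 such read, too few for any share. No read was therefore counted under both 3p names, although 1 base separates them. The names of 2 of the 3 arms thus had counts, and miR-129-5p alone entered the fit.

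**Figure D1:**
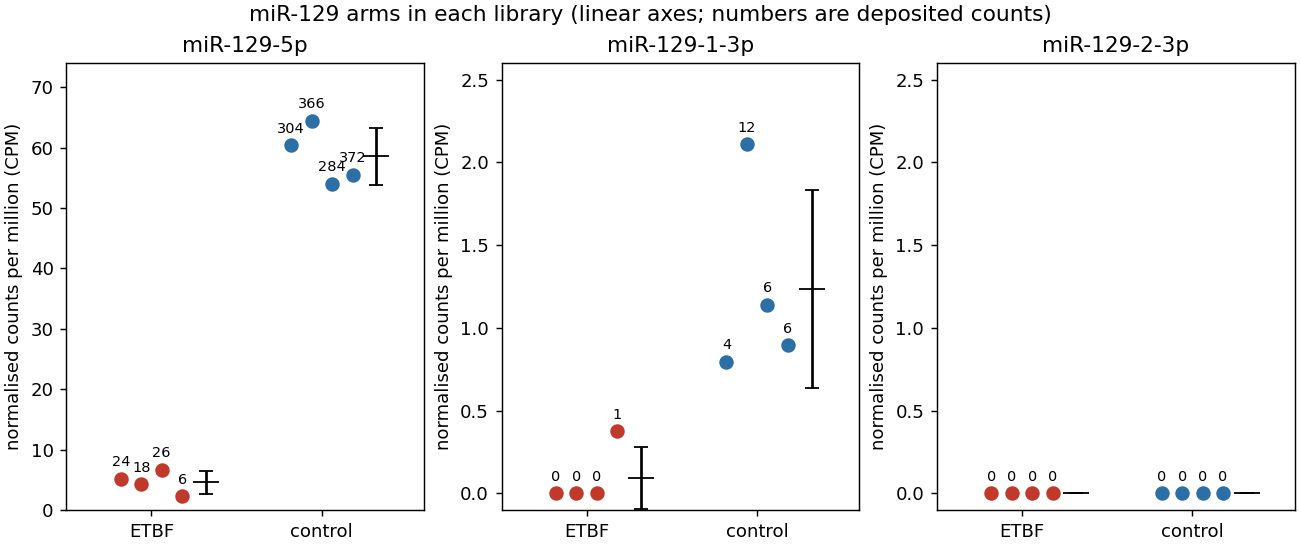
Level of the 3 miR-129 arms in each library, in CPM on linear axes, with ETBF libraries on the left (red) and control libraries on the right (blue) of each panel. Points are libraries labelled with their deposited counts, and the black mark and bar are the mean ± SD (n = 4). MiR-129-5p lies between 2.24 and 6.68 CPM with ETBF, and between 54.0 and 64.4 CPM in the control libraries, miR-129-1-3p is at 0 in all but 1 ETBF library, and miR-129-2-3p is at 0 throughout.

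Both detected arms were lower with ETBF by factors whose counting intervals overlap, so the balance between them could be compared only coarsely. MiR-129-1-3p made up 1 of 38 miR-129 reads with ETBF, or 2.63% (exact 95% interval 0.0666 to 13.8%). In controls it made up 28 of 691, or 4.05% (2.71 to 5.80%). The share in single control libraries was 2.56%, 6.15%, 4.05% and 3.12% for replicates 1 to 4. In ETBF replicates 1 to 3 it was 0 of 12, 0 of 9 and 0 of 13 reads, whose upper bounds of 26.5%, 33.6% and 24.7% lie above every control share. ETBF replicate 4 had 1 of 4 reads, with an interval of 0.631 to 80.6%. A change of the arm balance was not detectable at this depth. The 5p arm had 23.7 reads for each read of miR-129-1-3p in the pooled controls.

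**Figure D2:**
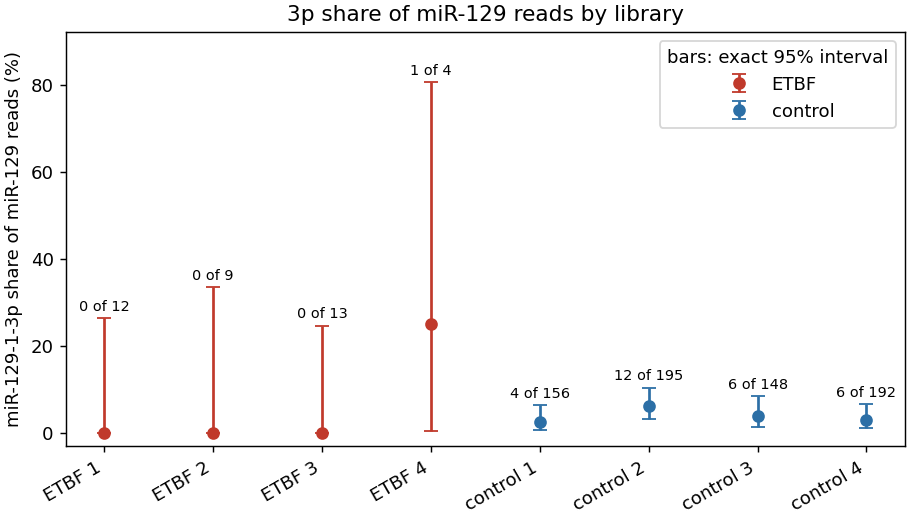
Share of miR-129 reads that were miR-129-1-3p, in percent, for the 4 ETBF (red, left) and 4 control libraries (blue, right), with 5p counts halved. Points are single libraries, bars are exact 95% binomial intervals, and the numbers give 3p reads of all miR-129 reads. The ETBF intervals reach from 24.7% to 80.6% at their upper ends and cover all control shares, which lie between 2.56% and 6.15%.

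Among the miRNAs that could be fitted, miR-129-5p stood at the far end of the falls. With edgeR's quasi-likelihood test at an adjusted p of 0.05, 34.4% of the 480 tested miRNAs were called, 19.8% higher and 14.6% lower with ETBF. With upper-quartile scaling 71 were higher and 89 lower, against 95 and 70 with TMM. For 15.6% of the tested miRNAs all ETBF libraries lay below all controls, as for miR-129-5p, and among the 1496 names with any count this held for 5.75%, miR-129-1-3p included. The contrast chose miR-129-5p, so nothing is read from these shares.

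The next largest falls were those of miR-149 and miR-210-3p. MiR-149, an entry without an arm whose hairpin lies in the proteoglycan gene GPC1, was at 2607, 2207, 2584 and 1010.2 CPM in ETBF replicates 1 to 4, against 5492, 5496, 6436 and 5376 CPM in the control libraries. All ETBF libraries lay below all controls, with replicate 4 the lowest of them. It was lower by a log2 fold change of -1.44 (SE 0.20, edgeR adjusted p = 4.43e-05). MiR-210-3p, which hypoxia induces through HIF, had 208 to 292 CPM with ETBF, against 639.9 to 717 CPM in the control libraries, with the lowest ETBF value in replicate 1. Its log2 fold change was -1.43 (SE 0.10, edgeR adjusted p = 1.47e-08). The fitted values of both thus lay over 2 log2 units above that of miR-129-5p.

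**Figure D3:**
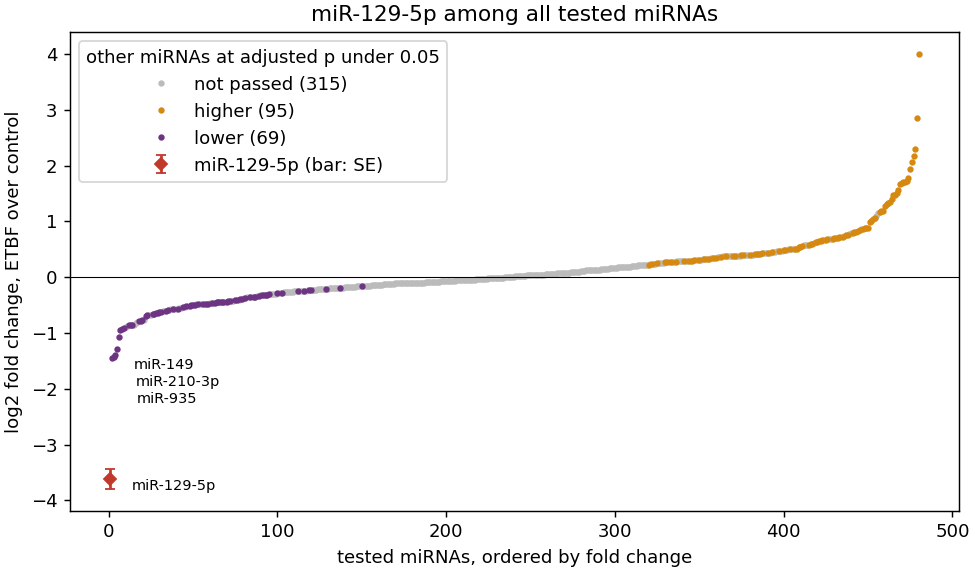
Log2 fold change (ETBF over control) of the 480 tested miRNAs in ascending order, each point 1 miRNA, coloured by its call at an edgeR adjusted p under 0.05. The red diamond is miR-129-5p with its SE, at -3.62, and the points that follow it are miR-149 at -1.44, miR-210-3p at -1.43 and miR-935 at -1.40.

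The miRNAs whose levels followed miR-129-5p most closely over the 8 libraries were miR-26a-5p, miR-671-5p, miR-1292-5p, miR-615-3p and miR-30d-5p, by Pearson's r of log2 CPM. The values of r were 0.98 for miR-26a-5p and 0.969 to 0.971 for the others. All 5 were lower with ETBF, which follows from choosing them by r with an arm that separates the groups. Nothing is therefore read from their direction or their adjusted p. Of the 479 other tested miRNAs 33 had r above 0.9, while 38 had r below -0.9. Within the groups, after the group means were removed, r was 0.30 to 0.56. MiR-26a-5p, a growth-restraining miRNA made from hairpins in CTDSPL and CTDSP2, fell to 19506 ± 1123 CPM with ETBF, against 27428 ± 778 CPM in the control libraries (SD, n = 4 each). Its log2 fold change was -0.49 (SE 0.06, edgeR adjusted p = 1.87e-05). MiR-671-5p had 32.1 ± 2.37 CPM with ETBF, against 50.4 ± 1.89 CPM in the control libraries (log2 fold change -0.64, SE 0.10, edgeR adjusted p = 0.000105). MiR-1292-5p (-0.78, SE 0.17), miR-615-3p (-0.78, SE 0.09), whose hairpin lies among the HOXC genes, and miR-30d-5p (-0.62, SE 0.07) fell as well. The fold changes of these 5 were far smaller than that of miR-129-5p.

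MiRNA families built like miR-129, with 1 mature arm shared by several hairpins and a partner arm particular to a hairpin or a part of them, were set beside it. There were 18 such families. Of the 17 shared arms tested 4 rose, 6 fell and 7 did not pass, with fold changes between -0.49 and 0.49 on the log2 scale and a median of -0.13, where 19.8% of all tested miRNAs were higher and 14.6% lower. Without ETBF replicate 2, 2 shared arms rose. Of the 22 specific arms tested 13 rose, 0 fell and 9 did not pass, with a median of 0.75. Of all 480 tested miRNAs 19.8% were higher and 14.6% lower, and the median was 0.01. No specific arm was lower at an unadjusted p under 0.05 with edgeR or called lower with DESeq2 or limma-voom. The 22 are those that passed the filter, and 12 further specific arms did not, of which 8 had 0 counts in all libraries. An arm can pass this filter through a single group, so scarce arms that rose could enter by their ETBF libraries.

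MiR-16-1-3p, the passenger arm of a hairpin in DLEU2, was at 11.8, 14.8, 10.3 and 13.8 CPM in ETBF replicates 1 to 4, against 3.18, 2.99, 2.85 and 2.24 CPM in the control libraries. It rose by 2.17 on the log2 scale (SE 0.21, edgeR adjusted p = 9.71e-07). The other specific arm, miR-16-2-3p, had 255 ± 11.5 CPM with ETBF, against 267 ± 24.0 CPM in the control libraries, and did not pass (log2 fold change -0.06, SE 0.08). For miR-128, another brain-enriched miRNA, the shared arm miR-128-3p fell to 4295 ± 417 CPM with ETBF, against 5964 ± 327 CPM in the control libraries. Its specific arm miR-128-1-5p rose to 17.5 ± 3.89 CPM, against 5.53 ± 0.593 CPM in the control libraries (log2 fold change 1.67, SE 0.18, edgeR adjusted p = 3.40e-06). In the miR-26a family the shared arm fell (-0.49, SE 0.06) and the specific arm miR-26a-2-3p rose (0.88, SE 0.19). The miR-24 arms miR-24-1-5p (-0.30, SE 0.26) and miR-24-2-5p (-0.02, SE 0.10) did not pass. MiR-24-2-5p was above 0 with library totals alone and without ETBF replicate 1.

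The miR-129 values lay below those of the other families: its shared arm lay at -3.62 where those of the other families reached -0.49 at the lowest, and its detected specific arm had 1 count with ETBF and 28 in controls. At a comparable depth the untested arms of other families were more even, with 24 counts with ETBF and 28 in controls for miR-30c-2-3p, and 26 with ETBF and 19 in controls for miR-103a-2-5p. MiR-218-1-3p had 0 counts with ETBF and 3 in controls. The difference between miR-129 and the other families was not tested. Like miR-129-2-3p, the arms miR-128-2-5p, miR-92a-2-5p, miR-19b-2-5p, miR-7-2-3p, miR-219a-2-3p and miR-218-2-3p had 0 counts in all libraries while their sister hairpins had counts.

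**Figure D4:**
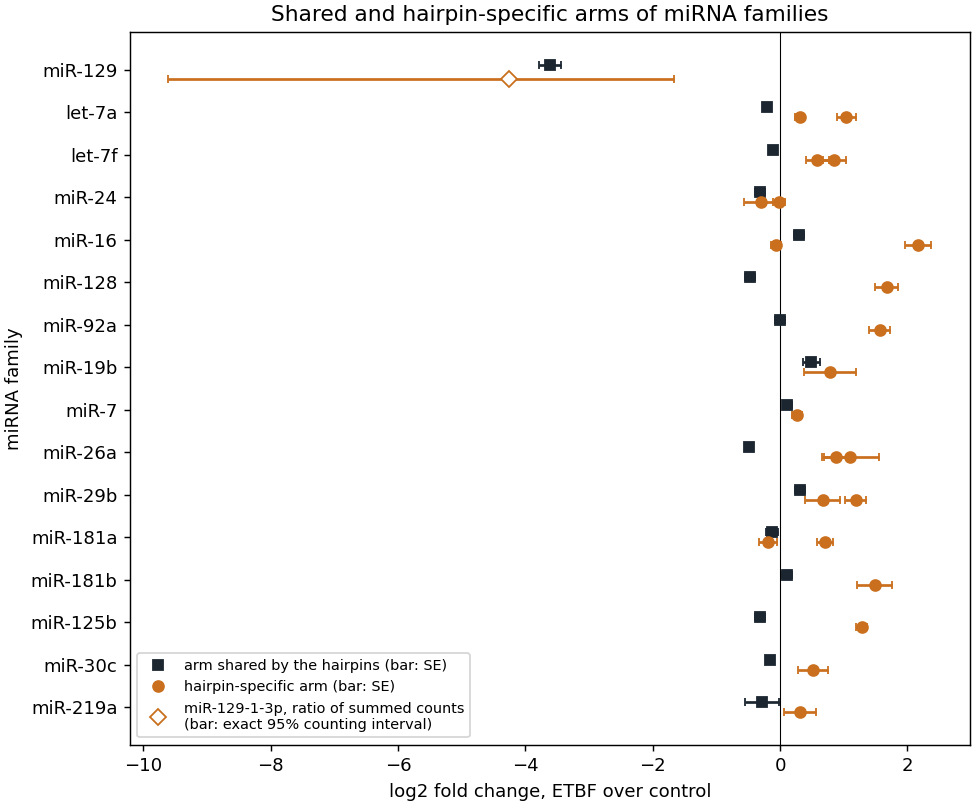
Log2 fold change (ETBF over control) of shared arms (dark squares) and hairpin-specific arms (orange circles) in miR-129, at the top, and the 15 other families with both kinds of arm tested, with bars for the SE. The open diamond is miR-129-1-3p, given as the log2 ratio of summed counts, -4.26, with its exact 95% counting interval of -9.61 to -1.66. Shared arms of the other families lie between -0.49 and 0.49, and their specific arms between -0.30 and 2.17.

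Counts with a common divisor, as in miR-129-5p, were found mostly in miRNAs present in several hairpins. Of 46 tested miRNAs whose sequence occurs in 2 or more hairpins of the RefSeq table, 11 had counts that all shared a divisor of 2 or more, against 3 of 327 whose sequence occurs in 1. The shared arms of the other families above are not among them: 0 of 17 had such a divisor. Of the 15 tested miRNAs with a common divisor, 14 matched a sequence in the table and miR-548d-3p did not. Besides miR-129-5p, 1 of them rose, miR-548d-3p (1.48, SE 0.25), and 13 did not pass, where 34.4% of all tested miRNAs were called. MiR-548d-3p had 5.47 CPM with ETBF and 1.92 CPM in controls. It passed the filter on low counts only with its ETBF libraries, so nothing is read from its rise.

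Other miRNAs known from neurons had smaller fold changes, from -0.94 upwards among those that fell. Of 13 tested names of a neuronal list without miR-129, 0 rose, 4 fell and 9 did not pass, so 30.8% were called where 34.4% of all tested miRNAs were. The median was -0.28. None was higher at an unadjusted p under 0.05 with edgeR or called higher with DESeq2 or limma-voom. Those that fell were miR-128-3p (-0.47, SE 0.08) and 3 arms of the locus MIR132 and MIR212, which CREB induces in neurons. Of these, miR-212-5p had a log2 fold change of -0.94 (SE 0.23). Those of the miR-132 arms were -0.68 (SE 0.11) for 3p and -0.44 (SE 0.13) for 5p. Of the neuron-defining miRNAs, miR-124-3p and miR-137 had 0 counts in all 8 libraries, while miR-124-5p, the other arm of the miR-124 hairpins, had 12 counts with ETBF and 9 in controls. MiR-9-5p, a neural progenitor miRNA, was abundant at 8489 ± 854 CPM with ETBF, and 8649 ± 910 CPM in the control libraries, and did not pass (-0.03, SE 0.09). MiR-7-5p had 175530 ± 13218 CPM with ETBF, against 162070 ± 14082 CPM in the control libraries (0.12, SE 0.08).

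A second list held miRNAs known to be silenced by promoter methylation in gut and other tumours. Within miR-129 this property is known for MIR129-2, whose specific arm had 0 counts in both groups. Of 25 tested names 3 rose, 10 fell and 12 did not pass, so 52% were called against the 34.4% of all tested miRNAs, with a median of -0.19 against 0.01. It shares 3 tested names with the neuronal list and 7 with the epithelial markers. Besides miR-149, those that fell included miR-148a-3p, at 15509 ± 1507 CPM with ETBF, and 21255 ± 2797 CPM in the control libraries (log2 fold change -0.45, SE 0.09, edgeR adjusted p = 0.00118). MiR-200c-3p, which keeps cells epithelial by repressing ZEB1, fell to 10957 ± 774 CPM, against 13635 ± 543 CPM in the control libraries (-0.32, SE 0.07). MiR-200a-3p also fell (-0.19, SE 0.06, edgeR adjusted p = 0.0308), a call lost in 9 of 18 alternatives with adjusted p up to 0.166. The 3 that rose were miR-34a-5p (0.40, SE 0.09), miR-203a (0.42, SE 0.09) and the scarce miR-663a (1.71, SE 0.34). MiR-663a had 6.35 ± 2.33 CPM with ETBF, against 1.84 ± 0.691 CPM in the control libraries. The control libraries alone would not have carried it past the filter on low counts. Nothing is therefore read from its rise, although it counts among the 3. Methylation was not measured in these files.

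Of the listed miRNAs on the chromosomes of the miR-129 hairpins, none that was tested passed as lower, and none tested came from the side of MIR129-2. The neighbours of MIR129-2 and MIR129-1 that lie closest, MIR670 at 21.6 kb and MIR593 at 126 kb in GENCODE release 29, had 0 counts for both of their arms in all libraries. Of the 10 tested arms from MIR182, MIR96, MIR183, MIR335, MIR29A and MIR29B1, which lie 1.56 to 2.67 Mb from MIR129-1, 3 rose, 0 fell and 7 did not pass, or 30% called against 34.4% of all tested miRNAs. No arm was lower at an unadjusted p under 0.05 with edgeR or called lower with DESeq2 or limma-voom. MiR-29b-1-5p rose to 14.7 ± 1.67 CPM with ETBF, against 6.48 ± 0.946 CPM in the control libraries (log2 fold change 1.19, SE 0.17, edgeR adjusted p = 4.20e-05). MiR-335-5p, from an intron of MEST, rose by 0.43 (SE 0.11, edgeR adjusted p = 0.00700). MiR-29a-5p rose by 0.54 (SE 0.20, edgeR adjusted p = 0.0435), a call lost in 12 of 18 alternatives with adjusted p up to 0.187. The abundant arms miR-182-5p (-0.08, SE 0.06), miR-183-5p (0.06, SE 0.06) and miR-29a-3p (0.07, SE 0.06) did not pass. Without control replicate 4, 5 arms rose. MIR592, at 1149688 bases from MIR129-1, was not on the list, and its product miR-592 had counts in 6 libraries.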

How the data were processed

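Each of the 8 libraries has 1 deposited file of raw counts over the same 2575 miRNA names. Per the submitters' processing notes, the authors used Trimmomatic, FastQC and featureCounts with the genome build GRCh37.p5. For versions, aligner, annotation release and strand, the sources used here give nothing.

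Samples were grouped by title. Counts as deposited were fitted with edgeR 4.0.16 in R 4.3.3 (filterByExpr with a minimum count of 10, TMM, quasi-likelihood F test, 4 ETBF against 4 control libraries), and p-values got a Benjamini-Hochberg adjustment across all 480 miRNAs that passed, with a threshold of 0.05. Each SE is an approximation, the absolute log2 fold change over the square root of its F statistic. The script was tested on simulated data. Counting intervals are exact (Clopper-Pearson, 95%), conditional on the summed counts for ratios. Likeness used log2 CPM with a prior count of 2. Library totals of 2591655 to 6522542 counts limit precision for low names.

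The members and lists were chosen with earlier results of these data known, and the lists come from general knowledge. Named miRNAs were the members, the 5 closest in pattern, the next 2 falls, in each list at most 4 of the called names, taken by abundance and families with both kinds of arm tested. Names given beyond that rule (markers, neuronal and neighbouring arms, names of the methylation list that rose, miR-935, miR-548d-3p, untested or undetected arms of families) were chosen after their values were seen. Alternatives were RLE, library-total and upper-quartile scaling, no filter, a minimum count of 50, DESeq2 1.42.0, limma-voom 3.58.1, the replicate number as a block, division by common divisors, thinning and each library left out. Same-numbered libraries did not deviate together (r between -0.058 and 0.061), and the main fit did not pair them. Counting spread could hide a pairing, so this check cannot exclude one.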

Additional observations from a re-analysis of the deposited data

Results flagged for a closer look

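The levels of 54 miRNAs were looked at in each group of 4 libraries for a library whose gap to its nearest neighbour passed Dixon's critical value, and 5 of 108 groups had one. Chance flags about 1 in 20 groups. For miR-129-1-3p the ETBF group met it at 0.374 CPM in replicate 4, but this is 1 count beside 3 libraries at 0, where any single count would, and it lies below the 1.16 CPM that a count of 0 allows in that library, so nothing is read from it. For miR-148a-3p, ETBF replicate 2 had 13249 CPM, while ETBF replicates 1, 3 and 4 had 16223 to 16310.5 CPM. MiR-149 had 6436 CPM in control replicate 3, with 5376 to 5496 CPM in the remaining control libraries. MiR-212-5p had 11 CPM in control replicate 3, with 8.80 to 9.15 CPM in the remaining control libraries. MiR-30c-1-3p had 3.38 CPM in control replicate 1, with 7.39 to 8.20 CPM in the remaining control libraries.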

How the results depend on the processing

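The log2 fold change of miR-129-5p lay between -3.84 and -3.46 over 18 alternatives, among them -3.64 with the replicate number as a block, a block that changed the calls of miR-200a-3p and miR-30c-5p (adjusted p = 0.0576 and 0.0969) and of no other miRNA named by the rule. For miR-129-1-3p the ratio of summed counts, ETBF over control, lay between 0.0469 and 0.0745 in 11 of 12 alternatives. Without ETBF replicate 4 it was 0.189 with 3 counts set for 0, which leaves out the counting error of the controls. Over the 18 alternatives 71 to 106 miRNAs were higher and 59 to 89 lower. The specific arms of other families had 9 to 14 higher and 0 lower, their shared arms 2 to 4 higher and 4 to 7 lower (2 higher without ETBF replicate 2), the neuronal list 0 higher and 3 to 5 lower, the methylation list 2 to 4 higher and 8 to 12 lower, and the neighbours 2 to 5 higher (5 without control replicate 4) and 0 lower. MiR-24-2-5p (-0.02) was at 0.04 with library totals alone, and from -0.08 to 0.04 with 1 library left out (0.04 without ETBF replicate 1). MiR-92a-3p, at -0.00, was at 0.05 with library totals alone, 0.01 with a minimum count of 50, 0.00 with limma-voom, 0.01 after thinning, and from -0.06 to 0.06 with 1 library left out (above 0 when it was replicate 3 or 4 of either group). Neither passed, and the cause was not tested. Depth limits the arm balance and miR-129-1-3p, which rests on 29 reads in all.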
